A study of Mus musculus with 24 samples.

Results

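The LPS response of TTP-/- bone marrow-derived dendritic cells (BMDCs) was compared with that of WT BMDCs between 0 and 3 h. For every gene the contrast was the change between 0 and 3 h in TTP-/- cells minus the same change in WT cells, on the scale log2(FPKM + 0.1), where FPKM are reads scaled to the length of the gene and the depth of the library. A positive contrast means a larger induction or a weaker repression in TTP-/- cells, and a negative contrast a smaller induction or a deeper repression. Of 8758 genes tested, 280 (3.20%) passed an adjusted p of 0.05 (limma, Benjamini-Hochberg over all genes tested), 167 (1.91%) with a positive and 113 (1.29%) with a negative contrast. The whole series lists 23394 gene IDs in 24 libraries, of which 12 enter this comparison.

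BMDCs were grown with GM-CSF from bone marrow of TTP-/- and WT mice of 9 to 12 weeks on a C57BL/6 background, and were collected untreated (0 h) or at 3 h of 10 ng/ml LPS, with 3 libraries in each of the 4 groups. The TTP-/- mice lack TTP in the whole animal and from birth, so the cultures grew without it. The replicates are called biological triplicates without a statement on which share an animal or a day, and p-values measure the spread between these libraries. Libraries held 19966708 to 25553546 assigned reads.

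TTP, encoded by Zfp36, binds AU-rich elements (AREs) in the 3′ untranslated regions of mRNAs and recruits deadenylases, which leads to decay of the mRNA. LPS is sensed by Toll-like receptor 4, which starts an early wave of NF-kappaB and MAP kinase dependent genes (cytokines, chemokines, immediate-early transcription factors) and, through interferon beta, a second wave of interferon-stimulated genes. In dendritic cells this response is coupled to maturation, with more costimulatory and migratory molecules at the surface.

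Zfp36 (ENSMUSG00000044786, GRCm38 chromosome 7, 28376784 to 28380253, minus strand) had 87.4, 101 and 102 FPKM in TTP-/- cells and 213, 201 and 213 FPKM in WT cells at 0 h. At 3 h it had 107, 105 and 100.1 FPKM in TTP-/- cells and 125, 136 and 122 FPKM in WT cells. The genotypes did not overlap at either time, in the direction of the labels, and which part of the gene the reads of TTP-/- cells come from was not tested. Its own contrast was positive, 0.81 (standard error 0.13, limma adjusted p = 0.00837), with an LPS estimate of 0.10 in TTP-/- and −0.71 in WT cells. The dendritic label was held against its markers. The 23 dendritic cell and antigen presentation genes summed to lower values in TTP-/- than in WT cells at both times, without overlap. The sums were 1144 to 1619 FPKM in TTP-/- and 2128 to 2623 FPKM in WT cells at 0 h. At 3 h they were 1604 to 1677 FPKM in TTP-/- and 2329 to 2692 FPKM in WT cells. Single genes of dendritic cells did not all go the same way. Cd74, the class II invariant chain, had 508 to 770.3 FPKM in TTP-/- and 894 to 1197 FPKM in WT cells at 0 h, and the integrin Itgax had 12.0 to 15.5 FPKM in TTP-/- and 8.83 to 12.9 FPKM in WT cells. Zbtb46, a transcription factor of conventional dendritic cells, had 0.64 to 0.92 FPKM in TTP-/- and 1.53 to 1.68 FPKM in WT cells.

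Summed markers of other cells were higher in TTP-/- libraries than in WT libraries at both times, with overlap only for the macrophage and the erythroid and platelet markers at 3 h. The 20 neutrophil markers, 20 of 20 in both tables and none at 0 in all libraries, summed to 1297 to 2063 FPKM in TTP-/- and 213.8 to 298.9 FPKM in WT cells at 0 h, and to 1101 to 1175 FPKM in TTP-/- and 119.3 to 133.4 FPKM in WT cells at 3 h. The mast cell, basophil and eosinophil markers (16 of 18 in both tables) summed to 184.1 to 233 FPKM in TTP-/- and 34.2 to 41.75 FPKM in WT cells at 0 h, and to 169.7 to 217.2 FPKM in TTP-/- and 19.12 to 27.51 FPKM in WT cells at 3 h. Macrophage markers (16 of 16) summed to 165.3 to 210.7 FPKM in TTP-/- and 72.11 to 95.87 FPKM in WT cells at 0 h, and to 70.61 to 86.17 FPKM in TTP-/- and 29.18 to 76.22 FPKM in WT cells at 3 h. B, plasma, T and NK cell markers (15 of 18) summed to 57.26 to 90.97 FPKM in TTP-/- and 7.21 to 9.445 FPKM in WT cells at 0 h, and to 90.67 to 105.7 FPKM in TTP-/- and 6.452 to 12.13 FPKM in WT cells at 3 h. Only 3 of these genes averaged 0.5 FPKM or more, so this sum does not speak for each of the cell types named. Erythroid and platelet markers (9 of 13) summed to 171.1 to 363 FPKM in TTP-/- and 78.24 to 99.95 FPKM in WT cells at 0 h, and to 74.29 to 116.7 FPKM in TTP-/- and 38.11 to 99.66 FPKM in WT cells at 3 h. In bulk RNA, fewer cells of a type and less RNA per cell cannot be told apart, and the part of these cells in the contrasts was not tested. Single libraries stood apart from their groups. WT 3 h replicate 1 had the highest macrophage sum (76.22 FPKM) and cytokine level of the WT 3 h libraries, and TTP-/- 0 h replicate 3 had the lowest neutrophil sum (1297 FPKM, against 1584 and 2063 FPKM) and the highest sum of dendritic cell genes (1619 FPKM, against 1144 and 1181 FPKM). WT 0 h replicate 2 had the lowest neutrophil sum of its group (213.8 FPKM, against 280.4 and 298.9 FPKM) and the highest sum of dendritic cell genes (2623 FPKM, against 2128 and 2219 FPKM), and without it 139 positive and 93 negative calls were made.

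**Figure D1:**
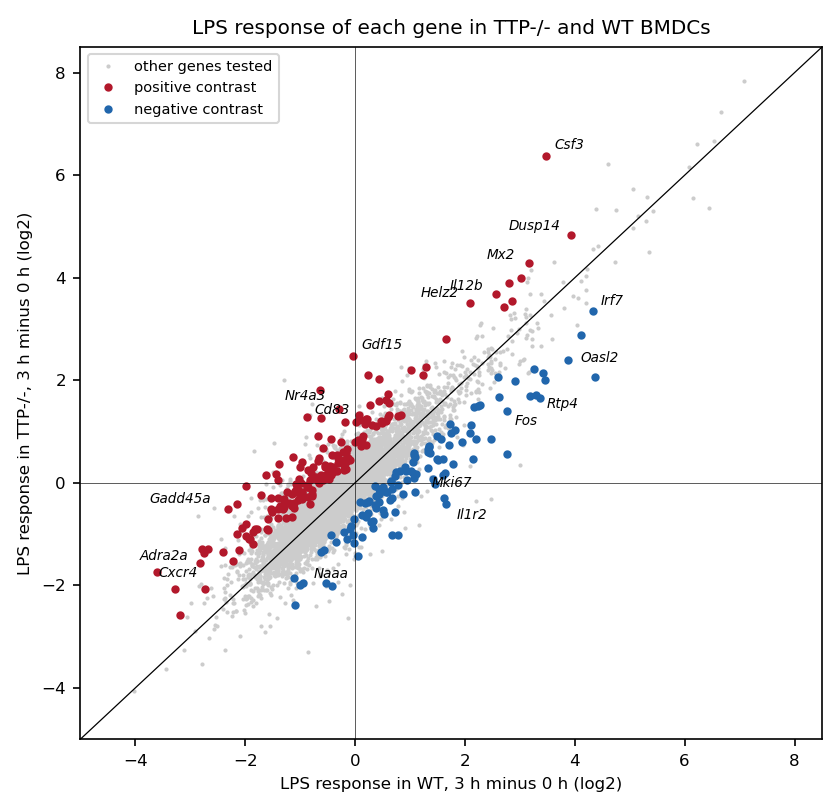
LPS response of each of the 8758 genes tested, in TTP-/- cells (vertical, log2) and in WT cells (horizontal, log2), with the line of equal response. Red points are the 167 genes with a positive contrast and blue points the 113 with a negative contrast, and most of them lie at modest responses, while the most strongly induced genes at the upper right are mostly grey.

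The genes with a positive contrast were mostly genes that TTP-/- cells held at a lower level before LPS, and those with a negative contrast mostly genes held at a higher level. Of the 167 genes, 150 were lower in TTP-/- cells at 0 h and 148 of the 167 passed the test of that difference, and of the 113 genes 103 were higher and 92 passed. Over all 8758 genes, 37.2% passed at 0 h and 23.8% at 3 h. By sign, 4663 of them were lower and 4095 higher in TTP-/- cells at 0 h, and 4982 lower and 3776 higher at 3 h. At 3 h the genotypes were split about evenly among the 167 genes, with 81 higher and 86 lower in TTP-/- cells, and among the 113 genes 46 were higher and 67 lower. The difference at 3 h passed for 85 of the 167 (50.9%) and 55 of the 113 genes (48.7%), so many gaps were not closed. The median difference was −0.82 at 0 h and −0.03 at 3 h for the positive genes, and 0.74 at 0 h and −0.18 at 3 h for the negative genes, against −0.03 and −0.05 for all genes. Since the contrast is the 3 h difference minus the 0 h difference, these counts take it apart and are no second test. A difference that passed at 3 h and not at 0 h was found for 19 of the 167 and 21 of the 113 genes, against 419 of all 8758 genes.

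**Figure D2:**
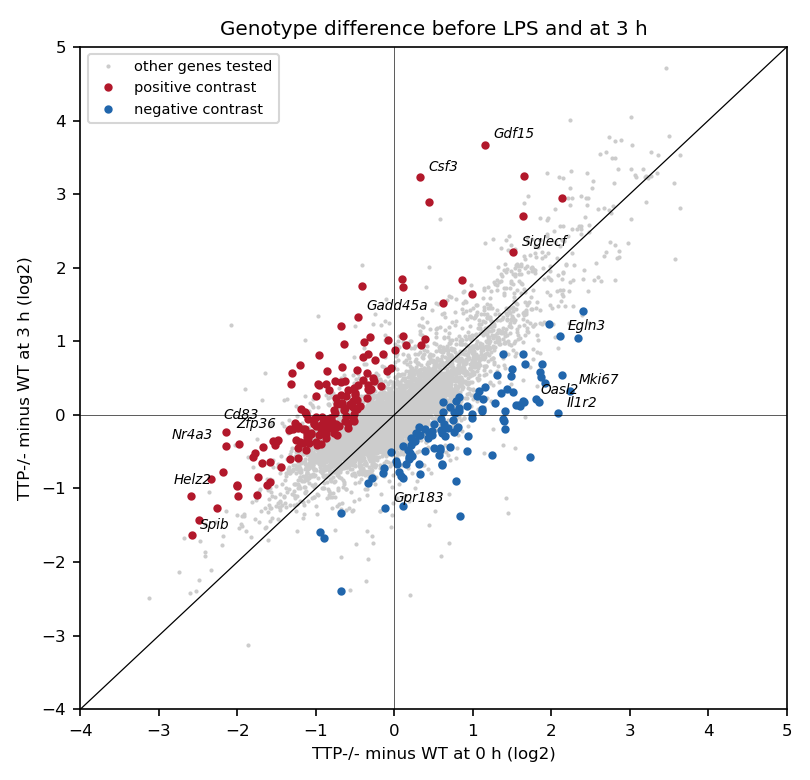
Genotype difference of each gene at 0 h (horizontal, TTP-/- minus WT, log2) and at 3 h (vertical), with the line of no change between the times. Red points (positive contrast) lie mostly left of 0 and blue points (negative contrast) mostly right of 0. At 3 h both colors spread to either side of 0, and Csf3 and Gdf15 are among the few red points near the top.

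In terms of the LPS response itself, the genes fell into 6 classes. Of the positive genes, 40 had a positive LPS estimate in both genotypes that was larger in TTP-/- cells, 68 a negative estimate in both that was weaker in TTP-/- cells, and 59 a positive estimate in TTP-/- and a negative one in WT cells. Of the negative genes, 59 had a smaller positive estimate in TTP-/- cells, 17 a deeper negative one, and 37 a negative estimate in TTP-/- and a positive one in WT cells. The tables of the 2 times were scaled separately, and the median gene stood at −0.35 in TTP-/- and −0.37 in WT cells. LPS estimates within a genotype are therefore descriptions with no test, and only the contrast, in which that scaling cancels, was tested. With all libraries brought to a common median the classes held 57, 45 and 65 positive and 74, 10 and 29 negative genes in the same order.

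Of the genes with the largest positive contrasts at 5 FPKM or more, Adra2a, the alpha-2A adrenergic receptor, had a negative LPS estimate in both genotypes, −1.74 in TTP-/- and −3.61 in WT cells. It had 11.9, 11.7 and 14.5 FPKM in TTP-/- and 28.2, 30.7 and 28.7 FPKM in WT cells at 0 h, and 3.31, 3.72 and 4.17 FPKM in TTP-/- and 2.61, 2.26 and 2.05 FPKM in WT cells at 3 h. The genotypes did not overlap at either time and changed places, with a contrast of 1.87 (standard error 0.17, limma adjusted p = 0.000714). Gadd45a, a stress-induced regulator of growth arrest, had 12.1, 11.8 and 9.73 FPKM in TTP-/- and 15.5, 14.7 and 15.9 FPKM in WT cells at 0 h, and 8.24, 6.98 and 8.17 FPKM in TTP-/- and 4.43, 2.84 and 2.19 FPKM in WT cells at 3 h. It also changed places without overlap (contrast 1.79, standard error 0.29, adjusted p = 0.00837). Cxcr4, the receptor for CXCL12, followed the same pattern (contrast 1.21, adjusted p = 0.00743), with means at 3 h of 5.65 ± 0.41 FPKM in TTP-/- and 4.13 ± 0.73 FPKM in WT cells (SD, n = 3 each).

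Nr4a3, an orphan nuclear receptor that is an immediate-early gene, had 6.92, 8.25 and 7.35 FPKM in TTP-/- and 34.2, 31.1 and 35.5 FPKM in WT cells at 0 h. At 3 h it had 20.7, 21.8 and 19.1 FPKM in TTP-/- and 35.1, 25.5 and 23.1 FPKM in WT cells. Every TTP-/- library lay below every WT library at both times, with a narrower gap at 3 h (contrast 1.73, standard error 0.20, adjusted p = 0.00268). Nr4a2 of the same family also passed (1.16, adjusted p = 0.00699), with WT libraries higher at 0 h and TTP-/- libraries higher at 3 h.

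Cd83, a maturation marker of dendritic cells, had 14.3, 17.4 and 21.1 FPKM in TTP-/- and 39.4, 42.7 and 44.4 FPKM in WT cells at 0 h, and 39.0, 40.1 and 39.6 FPKM in TTP-/- and 41.6, 43.4 and 43.2 FPKM in WT cells at 3 h. The levels at 3 h were thus close, while TTP-/- cells came from a lower level (contrast 1.16, standard error 0.18, adjusted p = 0.00699). Of the 20 costimulation and maturation genes tested, Cd83 alone passed, although 18 of 20 had a contrast above 0, with a median of 0.41 against 0.00 for all genes (also 1 gene without WT 3 h replicate 1, 2 genes without TTP-/- 0 h replicate 3). Of the 20 dendritic cell and antigen presentation genes, 1 passed, the transcription factor Spib (0.95, adjusted p = 0.0359), with 14 of 20 above 0 and a median of 0.27. Spib was lost without WT 3 h replicate 1 (adjusted p = 0.064), and without TTP-/- 0 h replicate 3 the list had 5 calls. Rel, an NF-kappaB subunit, had a contrast of 1.13 (adjusted p = 0.0168) with 5.24, 5.69 and 4.01 FPKM in TTP-/- and 13.5, 10.5 and 14.3 FPKM in WT cells at 0 h, and 7.05, 6.4 and 7.26 FPKM in TTP-/- and 8.0, 7.41 and 8.62 FPKM in WT cells at 3 h. Every TTP-/- library was below every WT library at both times, by more at 0 h. In the same list of 16 NF-kappaB genes the inhibitor family member Nfkbid went the other way (−0.79, adjusted p = 0.0292), and the median was 0.29. Without TTP-/- 0 h replicate 3, 4 genes of this list were positive.

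**Figure D3:**
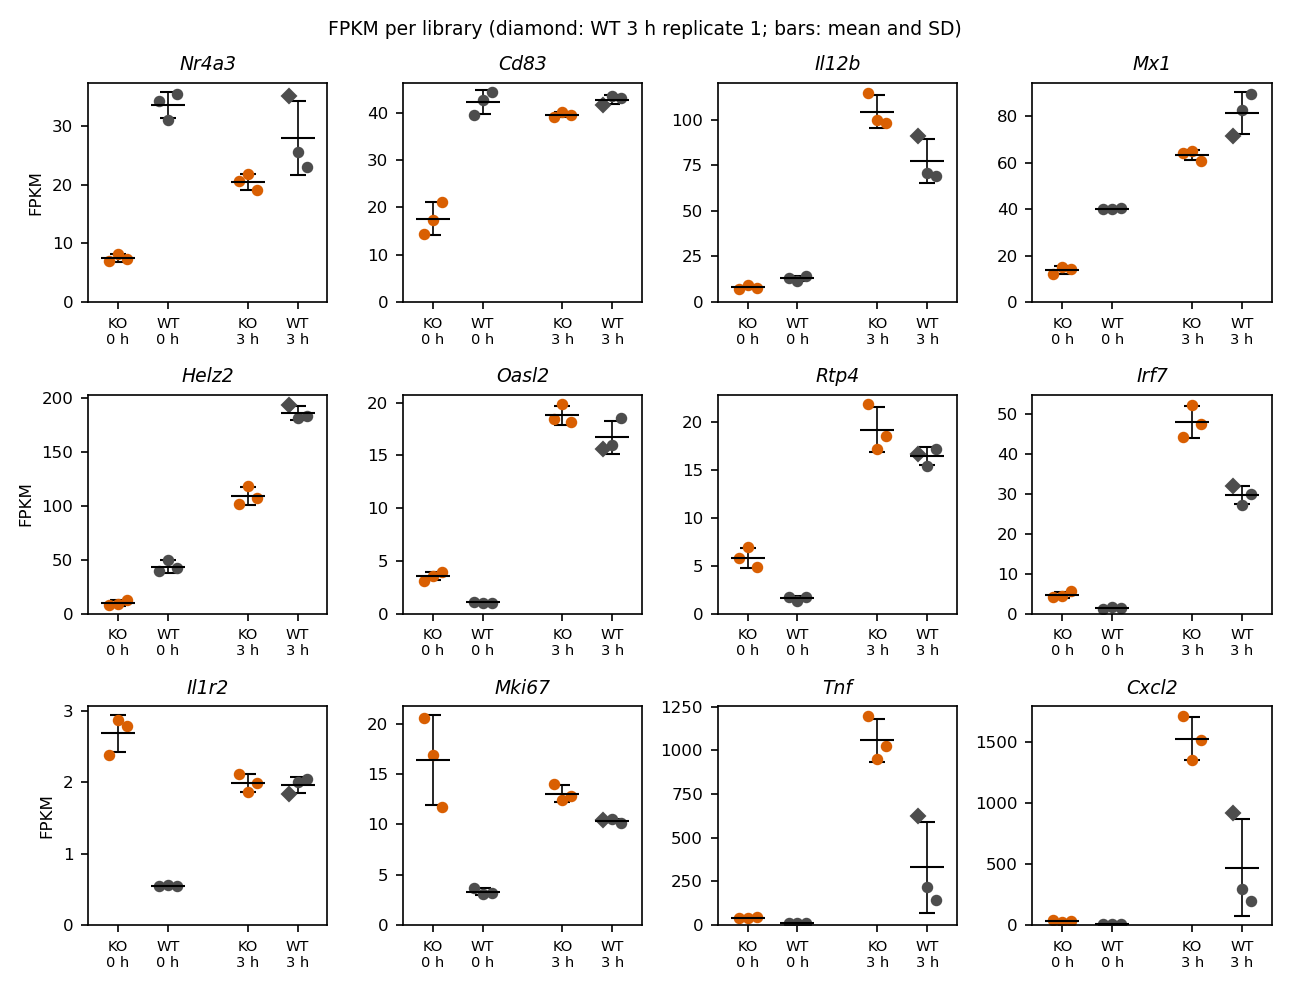
FPKM of 12 genes in each library, TTP-/- (KO, orange) left of WT (grey) at 0 h and at 3 h, with the mean and SD of 3 libraries. The diamond is WT 3 h replicate 1, which is the highest WT library for Tnf (625 FPKM against 219.8 and 144 FPKM in the other WT libraries) and for Cxcl2 (924 FPKM against 296 and 195 FPKM).

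With all libraries, interferon-stimulated genes had more calls than any other list, and the calls went both ways. This list also had the most genes tested. Of 25 tested, 4 had a positive and 4 a negative contrast (1.91% and 1.29% of all genes), with a median of −0.14. Of the 25 genes, 24 had a positive LPS estimate in both genotypes. At 0 h, 13 of them were higher and 8 lower in TTP-/- cells past the threshold (37.2% of all genes passed in either direction). At 3 h, 6 were higher and 3 lower (23.8% of all genes). The calls were 3 and 3 without WT 3 h replicate 1, and 5 and 4 without TTP-/- 0 h replicate 3.

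On the positive side, Mx1, an antiviral GTPase, had 12.0, 15.2 and 14.1 FPKM in TTP-/- and 39.9, 39.9 and 40.4 FPKM in WT cells at 0 h, and 63.9, 65.1 and 60.7 FPKM in TTP-/- and 71.5, 82.8 and 89.5 FPKM in WT cells at 3 h. Its TTP-/- libraries were below WT at both times, by less at 3 h (contrast 1.19, standard error 0.15, adjusted p = 0.0037). Its neighbour Mx2 had the same pattern (1.13, adjusted p = 0.00332). Usp18, which removes ISG15 and dampens interferon signaling, had a contrast of 0.72 (adjusted p = 0.0286). Helz2, a helicase that is induced by interferon, was outside the list and named for its size. It had 7.48, 8.97 and 12.8 FPKM in TTP-/- and 39.1, 49.9 and 41.9 FPKM in WT cells at 0 h, and 102, 118 and 108 FPKM in TTP-/- and 194, 182 and 183 FPKM in WT cells at 3 h. Its estimates were 3.50 in TTP-/- and 2.10 in WT cells, a contrast of 1.41 (standard error 0.24, adjusted p = 0.0127), and it stayed lower in TTP-/- cells at 3 h. The guanylate-binding proteins Gbp2 (0.82, adjusted p = 0.0126) and Gbp3 (0.77, adjusted p = 0.0275) were the 2 of 10 genes of their list that passed, both positive, with a median of 0.12.

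On the negative side, Oasl2, of the oligoadenylate synthetase family, had 3.13, 3.53 and 3.89 FPKM in TTP-/- and 1.12, 1.02 and 1.00 FPKM in WT cells at 0 h, and 18.4, 19.8 and 18.1 FPKM in TTP-/- and 15.6, 16 and 18.5 FPKM in WT cells at 3 h. The groups overlapped at 3 h and not at 0 h (contrast −1.48, standard error 0.14, adjusted p = 0.000857). Rtp4, an interferon-induced receptor transporter outside the list, had 5.79, 6.92 and 4.84 FPKM in TTP-/- and 1.74, 1.29 and 1.77 FPKM in WT cells at 0 h, and 21.9, 17.3 and 18.6 FPKM in TTP-/- and 16.7, 15.4 and 17.2 FPKM in WT cells at 3 h. Its contrast was −1.59 (standard error 0.22, adjusted p = 0.00447) and the levels at 3 h lay close together. Irf7, which amplifies type I interferon production, had 4.03, 4.41 and 5.52 FPKM in TTP-/- and 1.21, 1.73 and 1.26 FPKM in WT cells at 0 h. At 3 h it had 44.3, 52.3 and 47.4 FPKM in TTP-/- and 31.8, 27.3 and 29.9 FPKM in WT cells. It was higher in every TTP-/- library at both times although its contrast was negative (−0.98, adjusted p = 0.0359), and the call was lost without WT 3 h replicate 1 (−0.92, adjusted p = 0.0651). Ddx58, which encodes the RNA sensor RIG-I, had −0.92 (adjusted p = 0.00447) and Oas1a −0.74 (adjusted p = 0.0272). The DNA sensor family member Ifi207, also outside the list, had −1.24 (adjusted p = 0.0422), lost without WT 3 h replicate 1 (adjusted p = 0.0679).

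The promoters of these genes were searched for the core of the interferon-stimulated response element (ISRE), GAAANNGAAA on both strands, in the 300 bases around the start (250 before, 50 after) given by RefSeq for GRCm38.p6. Of the genes tested, 5827 had a promoter in that table and 252 (4.32%) held the core. It was found in 10 of 122 (8.20%) promoters of the positive genes, 12 of 91 (13.2%) of the negative genes and 10 of 19 (52.6%) of the interferon-stimulated list. A match is a description of the letters. The stretches are shown because genes with this element had contrasts of both signs, with the core in capitals and each written 5′ to 3′ on the strand of its gene, where a core on the other strand reads TTTCNNTTTC.
Gbp2 (positive contrast, chr3:142620579-142620638, plus strand): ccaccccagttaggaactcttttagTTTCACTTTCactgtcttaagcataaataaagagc
Gbp3 (positive contrast, chr3:142559974-142560039, plus strand): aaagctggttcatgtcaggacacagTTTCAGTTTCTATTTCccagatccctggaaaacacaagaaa
Ddx58 (negative contrast, chr4:40239789-40239848, minus strand): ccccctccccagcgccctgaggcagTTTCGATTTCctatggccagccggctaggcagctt
Oas1a (negative contrast, chr5:120907505-120907570, minus strand): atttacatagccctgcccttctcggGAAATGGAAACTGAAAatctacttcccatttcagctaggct
Ifi207 (negative contrast, chr1:173741816-173741875, minus strand): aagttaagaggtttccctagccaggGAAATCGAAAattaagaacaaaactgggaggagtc
Gbp3 and Oas1a held 2 overlapping cores. The windows of Helz2, Irf7 and Oasl2 did not hold these letters, and Mx1, Mx2, Rtp4 and Usp18 were not in the table.

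The inflammatory cytokines and chemokines include mRNAs with AREs, such as those of Tnf and Cxcl2, beside others without the motifs searched below. As genes in general did, the members of these lists differed between the genotypes more often in level than in the LPS response. Of 38 tested in both lists, 14 were higher and 4 lower in TTP-/- cells past the threshold at 0 h (37.2% of all genes passed in either direction). At 3 h, 21 were higher and 1 lower (23.8% of all genes). The contrast passed for 3 of the 38, against 3.20% of all genes. Summed chemokines were lower in TTP-/- than in WT cells at 0 h (5833 to 7495 FPKM in TTP-/- and 7593 to 8301 FPKM in WT cells) and overlapped at 3 h (19880 to 20430 FPKM in TTP-/- and 18880 to 21560 FPKM in WT cells). The sum does not stand for the single genes. The median log2 difference of the 19 chemokines tested was above 0, higher in TTP-/- cells, with 0.69 at 0 h and 1.06 at 3 h. Tnf had 39.9, 41.3 and 47.3 FPKM in TTP-/- and 14, 13.6 and 10.3 FPKM in WT cells at 0 h, and 1195, 953 and 1028 FPKM in TTP-/- and 625, 219.8 and 144 FPKM in WT cells at 3 h. The genotypes did not overlap at either time, and the LPS estimates were 4.62 in TTP-/- and 4.42 in WT cells, a contrast of 0.20 with a 95% interval of −1.07 to 1.47 (adjusted p = 0.951). The chemokine Cxcl2 had 0.26 (−1.10 to 1.61), the chemokine Ccl3 0.24 (−1.11 to 1.58), Il1b 0.13 (−0.97 to 1.24), Il1a 0.50 (−0.84 to 1.84) and the receptor antagonist Il1rn 0.09 (−0.80 to 0.98). The intervals of these 6 genes took in 0 and were about 0.8 or more wide on either side. Intervals here are not adjusted for the number of genes tested. Smaller differences, and some larger ones, could therefore go undetected. Il6 had 2.41, 2.72 and 1.71 FPKM in TTP-/- and 2.64, 1.46 and 2.89 FPKM in WT cells at 0 h, and 106, 83.4 and 96.8 FPKM in TTP-/- and 46.3, 45.5 and 55.1 FPKM in WT cells at 3 h. It overlapped before LPS and not at 3 h, with a contrast of 0.96 (0.21 to 1.70, adjusted p = 0.189) that did not pass.

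The 2 of 19 cytokines that passed were Il12b and Csf3, both positive. Il12b, the shared p40 subunit of IL-12 and IL-23, had 7.38, 9.09 and 7.63 FPKM in TTP-/- and 12.9, 11.5 and 14.3 FPKM in WT cells at 0 h, and 115, 99.9 and 98.1 FPKM in TTP-/- and 91.2, 71.0 and 69.3 FPKM in WT cells at 3 h. It was lower in TTP-/- cells before LPS and higher at 3 h, without overlap (contrast 1.12, standard error 0.19, adjusted p = 0.0126). Csf3, the granulocyte colony-stimulating factor, had 10.2, 11.6 and 11.0 FPKM in TTP-/- and 2.32, 0.87 and 0.59 FPKM in WT cells at 3 h, a difference that passed (adjusted p = 7.6e-05). At 0 h it had 1 to 3 reads per library in TTP-/- and 0 to 1 in WT cells, so the size of its contrast (2.90, adjusted p = 0.0119) depends on the pseudocount, with 1.80 (adjusted p = 0.305) at a pseudocount of 0.01, and 1.76 (adjusted p = 0.471) from the recovered reads with voom. Of 19 chemokines only Cxcl9, a ligand of CXCR3, passed (0.96, adjusted p = 0.0231), and with voom it did not (adjusted p = 0.119). Without TTP-/- 0 h replicate 3, Cxcl16 (0.56) passed as well and Ccl9 was negative (−1.16). Gdf15, a stress-induced cytokine, had 1.70, 2.05 and 2.13 FPKM in TTP-/- and 0.093, 0.032 and 0.063 FPKM in WT cells at 3 h. At 0 h it had 15 to 28 reads per library in TTP-/- and 2 to 9 in WT cells (contrast 2.52, adjusted p = 0.00411, and 0.0556 at a pseudocount of 0.01).

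WT 3 h replicate 1 stood apart from the other WT 3 h libraries in this group. Its inflammatory cytokines summed to 1434 FPKM, against 848.7 and 693.6 FPKM in the other WT libraries and 1895 to 2252 FPKM in TTP-/- cells, and on the log2 scale their median excess over the other WT libraries was 0.88, with 0.73 for chemokines, 1.5 for macrophage markers and −0.01 for all genes. Without it, 8 of 19 cytokines had a positive contrast in place of 2, with Il23a, the p19 subunit of IL-23 (1.26, adjusted p = 0.0397), Ifnb1, which encodes interferon beta (1.94, adjusted p = 0.0341), Osm (1.09, adjusted p = 0.0085), Il27 (1.11, adjusted p = 0.0345), Il12a (1.05, adjusted p = 0.0396) and Tnfsf15 (0.95, adjusted p = 0.0487) added to Csf3 and Il12b. Their adjusted p with all libraries ranged from 0.0918 for Ifnb1 to 0.606 for Tnfsf15, and with voom on all libraries none of the 6 passed (adjusted p 0.119 to 0.939). Ifnb1, Il23a, Il27, Il12a and Tnfsf15 were below 0.4 FPKM in every library at 0 h. Tnf (0.80, adjusted p = 0.163), Cxcl2 (0.90, adjusted p = 0.128) and Il1b (0.67, adjusted p = 0.16) did not pass without that library either. The other genes of at least 5 FPKM that passed only without it and had the largest contrasts were the tight junction gene Cldn1 (1.76), the niacin receptor Hcar2 (1.75), the prostaglandin synthase Ptgs2 (1.16), the transcription factor Cebpb (1.13) and F2rl2 (1.11) on the positive side, and 4930579G24Rik (−1.43), the long noncoding RNA Gm26765 (−1.30), the interferon-induced Ifi27l2a (−0.84) and the tetraspanin Cd81 (−0.62) on the negative side. The number of genes called over the whole table hardly moved, with 183 positive and 96 negative calls, and 220 of the 280 genes stayed called.

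Among regulators of mRNA decay, 2 of 16 passed, both positive, Zfp36 itself and Zc3h12c, of the regnase family (1.30, adjusted p = 0.00721), with a list median of 0.10. The TTP relatives Zfp36l1 (0.55, adjusted p = 0.186) and Zfp36l2 (−0.55, adjusted p = 0.192) did not pass. Of 12 MAP kinase phosphatases and kinases of the p38 and MK2 branch, the phosphatases Dusp5 (0.94, adjusted p = 0.0258) and Dusp14 (0.90, adjusted p = 0.0135) passed, both lower in TTP-/- cells at 0 h and overlapping with WT at 3 h. At a pseudocount of 1 the contrast of Dusp14 was 0.19 (adjusted p = 0.324), and without TTP-/- 0 h replicate 3, Dusp1 (0.68) and Dusp16 (0.51) made 4 positive calls in this list. The immediate-early transcription factors had 2 positive calls (Nr4a3 and Nr4a2) and 2 negative, Fos and Fosl2, of 20. Without WT 3 h replicate 1, Maff (1.23) and Atf3 (0.67) made 4 positive calls, and without TTP-/- 0 h replicate 3, Nr4a1 (1.05) and Klf4 (−0.95) were added, for 3 of each sign. Fos had 1.14, 1.12 and 1.21 FPKM in TTP-/- and 0.28, 0.27 and 0.19 FPKM in WT cells at 0 h, and 2.78, 4.09 and 2.97 FPKM in TTP-/- and 2.19, 2.37 and 2.14 FPKM in WT cells at 3 h. It was higher in TTP-/- cells at both times, by less at 3 h (contrast −1.36, standard error 0.20, adjusted p = 0.0064), and at a pseudocount of 1 the contrast was −0.40 and did not pass (adjusted p = 0.135).

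The ARE nonamer TTATTTATT and the heptamer TATTTAT within it were searched on the sense strand of the longest 3′ untranslated region of each gene in GENCODE vM21, which gave one for 7174 of the genes tested. The nonamer was in 16 of 145 positive genes (11.0%), 7 of 100 negative genes (7.0%) and 535 of all 7174 (7.46%), and the heptamer in 42.8%, 28.0% and 28.1%. Median lengths of these regions were 1447, 1314 and 1100 bases, so the positive genes also had more sequence in which to hold a match. The 535 genes with a nonamer had a median contrast of 0.02 and the others −0.01. Sites of 30 bases with the nonamer in capitals are given for genes of both signs, beside those of Tnf and Cxcl2, whose contrast did not pass. Tnf held 5 nonamers and Cxcl2 4, and the first of each is shown.
Zfp36 (positive contrast, chr7:28376950-28376979, minus strand): tatgacgactTTATTTATTgtattaagatt
Rel (positive contrast, chr11:23737833-23737862, minus strand): ctcccagactTTATTTATTttttttagctt
Vegfa (positive contrast, chr17:46017165-46017194, minus strand): ttgttatcatTTATTTATTggtgctactgt
Fos (negative contrast, chr12:85477103-85477132, plus strand): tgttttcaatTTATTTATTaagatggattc
Egln3 (negative contrast, chr12:54179139-54179168, minus strand): tgtcatgtccTTATTTATTttgtttattgt
Tnf (contrast not passed, chr17:35199688-35199717, minus strand): tttgcacttaTTATTTATTatttatttatt
Cxcl2 (contrast not passed, chr5:90905316-90905345, plus strand): gagagttcacTTATTTATTtatctatgtat
Vegfa, the angiogenic growth factor, had a contrast of 1.32 (adjusted p = 0.00123), and Egln3, a prolyl hydroxylase that marks HIF for degradation, −1.04 (adjusted p = 0.00332). Nr4a3, Cd83, Il12b, Csf3 and Gadd45a, with larger or like contrasts, held no nonamer in the region searched, while Nr4a3 and Csf3 held 2 heptamers each, Il12b and Gadd45a 1 each, and Cd83 none.

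Large negative contrasts were also found in Il1r2 and Mki67. Il1r2, the decoy receptor for IL-1 and a neutrophil-associated gene, had 2.38, 2.87 and 2.79 FPKM in TTP-/- and 0.55, 0.56 and 0.55 FPKM in WT cells at 0 h, and 2.11, 1.86 and 1.98 FPKM in TTP-/- and 1.83, 2.00 and 2.04 FPKM in WT cells at 3 h. The groups were apart at 0 h and overlapped at 3 h (contrast −2.07, standard error 0.12, adjusted p = 4.34e-05). The annotated gene Gm37347 overlaps it and also passed. Il1r2 was the single call among 17 neutrophil markers, whose median was 0.31, with 12 of 17 above 0. Without TTP-/- 0 h replicate 3, the granule genes Camp (0.65), Ngp (0.76) and Lcn2 (0.86) were positive as well. Of the 13 genes of the IL-1 family and inflammasome list, Nlrp3, the inflammasome sensor, was negative as well (−0.78, adjusted p = 0.033) and Il1rl1, the IL-33 receptor, positive (0.98, adjusted p = 0.0327).

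Mki67, a proliferation marker, had 20.6, 16.9 and 11.8 FPKM in TTP-/- and 3.68, 3.13 and 3.15 FPKM in WT cells at 0 h, and 14, 12.4 and 12.8 FPKM in TTP-/- and 10.4, 10.5 and 10.2 FPKM in WT cells at 3 h. Its contrast was −1.91 (standard error 0.24, adjusted p = 0.00332), with an estimate of 1.62 in WT cells. That estimate was not shared by the cell cycle list, whose median LPS estimate was −1.58 in TTP-/- and −1.07 in WT cells. Of its 19 tested genes 2 passed, Mki67 and the kinase Aurka (−0.74, adjusted p = 0.0475), both negative, 18 of 19 had a contrast below 0, and the median was −0.49. Aurka was lost without WT 3 h replicate 1 (adjusted p = 0.0794) and with voom (adjusted p = 0.459). The list summed to 115.5 to 178.7 FPKM in TTP-/- and 39.74 to 44.4 FPKM in WT cells at 0 h, and to 48.72 to 58.26 FPKM in TTP-/- and 27.07 to 30.21 FPKM in WT cells at 3 h, with the lowest 0 h value in TTP-/- replicate 3. Without that library 4 genes were negative.

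**Figure D4:**
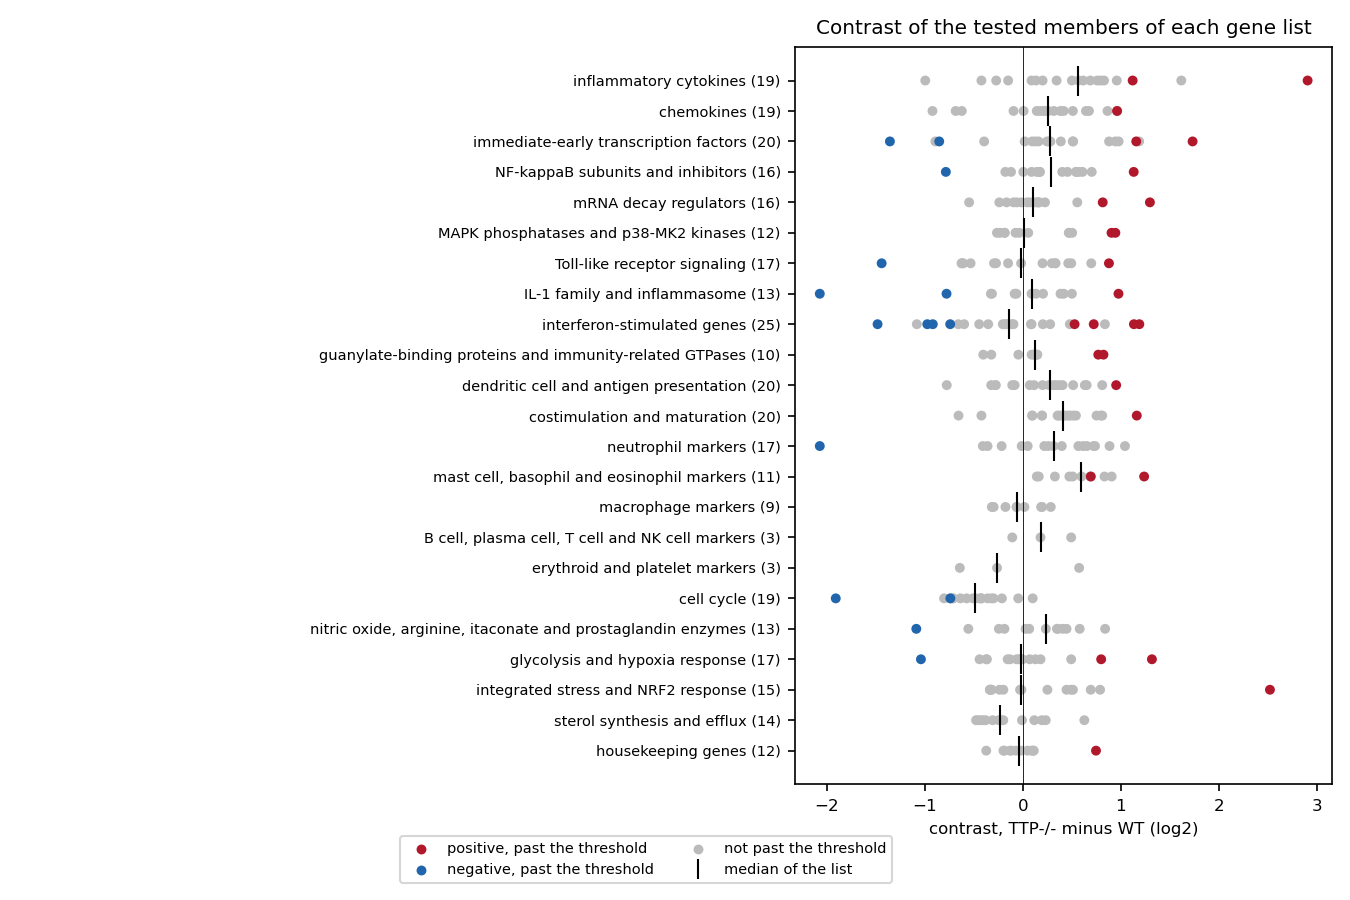
Contrast of every tested member of 23 gene lists (number tested in brackets; red and blue points passed the test, grey points did not; black ticks are medians). Cell cycle genes lie mostly below 0, costimulation and mast cell, basophil and eosinophil genes mostly above, and interferon-stimulated genes on both sides.

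Gpr183, a receptor for oxysterols that guides dendritic cell positioning, was a gene whose groups overlapped before LPS. It had 2.98, 3.03 and 2.43 FPKM in TTP-/- and 3.21, 2.92 and 3.04 FPKM in WT cells at 0 h, and 4.96, 5.15 and 4.67 FPKM in TTP-/- and 11.1, 12.6 and 12.4 FPKM in WT cells at 3 h. The groups were apart at 3 h only (contrast −1.15, standard error 0.14, adjusted p = 0.00332). Tnfrsf1a, the TNF receptor 1, had 6.13, 5.04 and 6.64 FPKM in TTP-/- and 2.74, 3.10 and 2.25 FPKM in WT cells at 0 h, and 7.01, 7.64 and 7.08 FPKM in TTP-/- and 8.54, 6.64 and 5.74 FPKM in WT cells at 3 h, where the groups overlapped (contrast −1.04, adjusted p = 0.036). Of 17 Toll-like receptor signaling genes, the RNA sensor Tlr3 was negative (−1.44, adjusted p = 0.0254) and the DNA sensor Tlr9 positive (0.88, adjusted p = 0.0122). Without WT 3 h replicate 1 the calls of this list were 3 positive and 2 negative, with the kinase family members Irak2 (0.66) and Irak3 (0.77) and the adaptor Ticam2 (−0.69) added, and without TTP-/- 0 h replicate 3 they were 2 and 2, with Sigirr (1.01) and Ticam2 (−0.69). Arg2, which degrades arginine, was the single call of 13 in its list (−1.09, adjusted p = 0.00529). The largest negative contrasts also took in Naaa, a lysosomal amidase (−1.0, adjusted p = 0.04), the pseudogene Gm9791 (−1.11, adjusted p = 0.0393) and the flap endonuclease Fen1 (−0.98, adjusted p = 0.0121). Fen1 and Gm10143 (−0.98) overlap on opposite strands, as do Gm26649 (−1.15) and Klf7 (−1.03), and since the counting is not stated to use strand their reads cannot be told apart. Naaa and Gm9791 were lost without WT 3 h replicate 1.

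The remaining named genes with large positive contrasts were Plekhg2 (1.26), an exchange factor for small GTPases, Grasp (1.14) and Retnla (1.23), a marker of alternative activation, with adjusted p of 0.0168, 0.0369 and 0.0261. Plekhg2 (chromosome 7, 28359604 to 28372599) lies close to Zfp36 (28376784 to 28380253), and the part of the altered Zfp36 locus in its contrast was not tested. Retnla had 19.0, 26.9 and 16.8 FPKM in TTP-/- and 78.6, 60.7 and 77.9 FPKM in WT cells at 0 h, and 17.5, 15.6 and 16.9 FPKM in TTP-/- and 21.4, 27.0 and 26.8 FPKM in WT cells at 3 h. It was lower in TTP-/- cells at both times, with an LPS estimate of −0.30 in TTP-/- and −1.53 in WT cells. Tpsb2, a mast cell tryptase (1.24, adjusted p = 0.00447, 5 to 30 reads per library), and Siglecf, an eosinophil lectin (0.69, adjusted p = 0.0193), were the calls among 11 mast cell, basophil and eosinophil markers, all of which had a contrast above 0 (median 0.60). Gata2 (1.19) made 3 without WT 3 h replicate 1. Of the glycolysis and hypoxia list, Pfkfb3 (0.80, adjusted p = 0.0411) passed beside Vegfa and Egln3, of 17 tested, and was lost without WT 3 h replicate 1. The 12 housekeeping genes had a median contrast of −0.04. None of 9 macrophage, 3 lymphoid, 3 erythroid and platelet or 14 sterol genes passed with limma or with voom, and 5 of these 29 genes had an unadjusted limma p below 0.05. Without TTP-/- 0 h replicate 3, 3 of the sterol genes passed, 1 positive (Mylip, 0.71) and 2 negative, among them Hmgcs1 (−0.56). Gdf15 was the single call among 15 genes of the integrated stress and NRF2 response, with 2 calls without WT 3 h replicate 1 and 4 without TTP-/- 0 h replicate 3, all positive.

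In the libraries at 6 and 9 h, which did not enter the contrast, the genes were split between higher and lower. Of the 167 positive genes, 78 were higher in TTP-/- cells at 6 h (46.7%, against 42.4% of all genes) and 61 at 9 h (36.5%, against 44.2%), and of the 113 negative genes 59 at 6 h (52.2%) and 71 at 9 h (62.8%). Their median differences were −0.06 and −0.21 for the positive genes and 0.01 and 0.11 for the negative genes at 6 and 9 h, against −0.06 and −0.05 for all genes. Of the positive genes, 37 were higher and 69 lower in TTP-/- cells past the threshold at 9 h, and of the negative genes 39 were higher and 16 lower, against 1533 and 1619 of all genes. Those 9 h majorities lay in the direction of the 0 h differences. Rtp4 stood higher in TTP-/- cells again late, its 4 differences over the time course being 1.80, 0.22, 0.83 and 1.5, and Mki67 gave 2.24, 0.33, 1.45 and 1.90. Gdf15 was higher in TTP-/- cells throughout, by 1.15, 3.67, 4.01 and 5.04. Nr4a3 had −2.15, −0.42, 0.11 and −0.64, and Gpr183 −0.12, −1.27, −0.89 and 0.04.

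The counts depended on single libraries. Leaving out TTP-/- 0 h replicate 3 gave 358 positive and 190 negative calls, with 279 of the 280 genes among them, and leaving out that library and WT 3 h replicate 1 gave 445 and 234, a choice made after the values were seen. Each of the following left out gave fewer calls by more than 1.5 times: WT 0 h replicate 1 (81 and 52) and 3 (79 and 48), TTP-/- 0 h replicate 1 (89 and 57), WT 3 h replicate 2 (83 and 50), and TTP-/- 3 h replicates 1 (85 and 47), 2 (77 and 57) and 3 (75 and 43). Without WT 3 h replicate 3 the negative calls were 74. Of the 280 genes, 112 were called in all 12 of these fits and none changed the sign of its contrast in them. Since these genes were called from the same libraries, the kept sign is no separate check. Among genes not called, Ccl3 had a contrast of 0.24 with all libraries, 0.86 without WT 3 h replicate 1 and −0.24 without WT 3 h replicate 3. Among named genes, Aurka, Pfkfb3 and Spib were called in 1 of the 12 fits, Gm9791, Grasp, Ifi207 and Naaa in 2, Dusp5, Irf7 and Nlrp3 in 3, Il1rl1 in 4, and Gbp3, Retnla, Tlr3 and Tnfrsf1a in 5. At a pseudocount of 1, which shrinks genes of low FPKM, Mx2 (0.18), Il1rl1 (0.28), Irf7 (−0.56) and Nlrp3 (−0.51) also did not pass, and Egln3 (−0.46), Tlr3 (−0.48), Arg2 (−0.44), Nr4a2 (0.49), Tpsb2 (0.35), Vegfa (0.69), Zc3h12c (0.79), Gdf15 (1.23), Il1r2 (−1.23) and Oasl2 (−0.98) passed with contrasts smaller by more than 1.5 times. Scaled to TPM, Aurka, Csf3, Cxcl9, Dusp5, Fosl2, Gm9791, Grasp, Irf7, Nfkbid, Pfkfb3, Spib and Tnfrsf1a did not pass. At the threshold itself, Jmjd4 was the last gene inside (−0.59, adjusted p = 0.0499) and Cd81 the first outside (−0.57, adjusted p = 0.0504).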

How the data were processed

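The authors trimmed reads with cutadapt, checked them with FastQC, aligned them with STAR 2.5 to GRCm38 (mm10) and tested the genotypes at each time with DESeq2; the counter and annotation are not given in the sources used here. FPKM were deposited in 1 table per time, scaled within its 6 libraries. The mean signal deposited per gene (reads divided by size factors) served only to turn FPKM into reads. The size factors were sought so that low values came out whole. All values checked, which left out the genes of most reads, then lay within 0.05 of a whole number. The authors' fold changes, p-values and test statistics in the same tables were not used. FPKM divide by a length close to the gene's genomic span (median ratio 0.96 over 7061 coding genes), so levels of single genes were compared within a gene only. The sums over lists add FPKM across genes and give more weight to genes of short span. Cut-offs in FPKM likewise favor genes of short span. Of 23394 IDs, 16878 were named by the tables and 6261 by GENCODE vM21.

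Of 20153 genes in both tables, the 8758 that averaged 0.5 FPKM or more across these 12 samples were tested. The contrast was fitted with limma 3.58.1 (R 4.3.3, 4 group means, mean-variance trend) on log2(FPKM + 0.1), which understates changes of low genes, with Benjamini-Hochberg adjustment. Steps were tested on simulated data. Named genes were the 12 largest positive and 12 largest negative contrasts past the threshold at 5 FPKM or more, the genes that the study names, up to 4 called members of each list, and up to 6 in each direction called only without WT 3 h replicate 1; other members of the lists and overlapping genes were named after their values were seen. Some called genes, counted in their lists, are not reported here by name. The members and lists were chosen with earlier results of these data known. The alternatives were other pseudocounts, filters, scalings, variance models and thresholds, the replicate number as a block, voom on recovered reads (mean of at least 10 reads), all 24 libraries in 1 fit, and leaving out libraries. Counting error and spread limit what genes of few reads can show.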

Additional observations from a re-analysis of the deposited data

Results flagged for a closer look

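Each result here is a tested difference in the LPS response between TTP-/- and WT cells, the limma contrast past an adjusted p of 0.05, and covers the 2 counts (167 genes positive, 113 negative) and the named genes. No explanation was weighed.

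Among interferon-related genes the log2 contrast was 1.41 for Helz2, 1.19 for Mx1, 1.13 for Mx2, 0.82 for Gbp2 and 0.77 for Gbp3, against −1.59 for Rtp4, −1.48 for Oasl2, −1.24 for Ifi207 and −0.98 for Irf7. Among cytokines and their receptors it was 2.90 for Csf3, 2.52 for Gdf15, 1.12 for Il12b, 0.96 for Cxcl9, 0.98 for Il1rl1, 1.21 for Cxcr4, −2.07 for Il1r2 and −1.04 for Tnfrsf1a. Among transcription factors and signaling genes it was 1.73 for Nr4a3, 1.16 for Nr4a2, 1.13 for Rel, 0.95 for Spib, 0.94 for Dusp5, 0.90 for Dusp14, 0.88 for Tlr9, −1.44 for Tlr3, −1.36 for Fos, −0.85 for Fosl2, −0.79 for Nfkbid and −0.78 for Nlrp3. Decay regulators had 1.30 for Zc3h12c and 0.81 for Zfp36.

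Of the remaining genes, Adra2a had 1.87, Gadd45a 1.79, Vegfa 1.32, Plekhg2 1.26, Tpsb2 1.24, Retnla 1.23, Cd83 1.16, Grasp 1.14, Pfkfb3 0.80 and Siglecf 0.69. On the negative side, Mki67 had −1.91, Gpr183 −1.15, Gm26649 −1.15, Gm9791 −1.11, Arg2 −1.09, Egln3 −1.04, Naaa −1.0, Gm10143 −0.98, Fen1 −0.98 and Aurka −0.74.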

How the results depend on the processing

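No called gene changed the sign of its contrast under any alternative run, all of which reuse the libraries that gave the calls. Positive and negative calls numbered 221 and 207 at a pseudocount of 1, 296 and 260 without a filter (20153 genes tested), 51 and 23 at 5 FPKM or more (2242 genes tested), 986 and 762 with sample quality weights (gene-by-gene estimates, from 0.136 for TTP-/- 0 h replicate 3 to 5.58 for WT 3 h replicate 2), 266 and 171 in 1 fit of 24 libraries, 287 and 175 with voom on the recovered reads (14321 genes tested), 50 and 30 at an adjusted p of 0.01, and 59 and 43 with a log2 contrast of at least 1. Leaving out 1 library gave 75 to 358 positive and 43 to 190 negative calls, and leaving out WT 3 h replicate 1 and TTP-/- 0 h replicate 3 gave 445 and 234 (chosen after the values were seen). The cause of these shifts was not tested, apart from the number of genes or libraries in the fit. The other settings (a pseudocount of 0.01, TPM, a common median, quantile normalization, no trend, robust variances) gave 115 to 212 positive and 92 to 153 negative calls. With the replicate number as a block there were 112 and 62, and 163 of the 280 genes kept their call. Of 18 same-numbered pairs of libraries, 5 deviated together (correlation above 0.1, range −0.58 to 0.41). The differently numbered WT 0 h replicate 2 and TTP-/- 0 h replicate 3 had 0.70. Whether same-numbered libraries share an animal or a day is not stated and cannot be read from these correlations. Of the comparisons of a named gene with an alternative, 1758 kept their side of the threshold, 267 lost the call and 53 gained it. Of the list counts, 989 stayed within 1.5 times and 299 did not. With 3 libraries a group, small differences and genes of few reads were beyond what the data can show. The smallest call was 0.41, which is no common limit, since larger contrasts such as that of Il6 (0.96) did not pass.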

Other observations

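Genes outside the naming rule, chosen here after their values were seen, gave further examples of each pattern, all past an adjusted p of 0.05 in limma. On the positive side, Nfil3, a basic leucine zipper transcription factor, had a contrast of 1.77 (limma adjusted p = 0.001), Ets2 1.63, Sox4, which overlaps the called Gm26735 on the other strand, 1.37 and the Gadd45a relative Gadd45b 1.04 at a mean of 103 FPKM. G0s2, an inhibitor of triglyceride lipase, had 2.45 and the peptide hormone gene Adm 1.59.

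On the negative side, the cyclin Ccnd1 had a contrast of −1.68, the cell cycle transcription factor E2f8 −1.45 and the spindle factor Tpx2 −1.18. The Schlafen genes Slfn9 (−1.49) and Slfn1 (−1.29) and the DNA sensor family member Ifi204 (−1.46) were negative as well, beside Il1rl2, the IL-36 receptor (−1.42), Il17ra, a subunit of the IL-17 receptor (−1.20), and Tnfrsf13c, the BAFF receptor (−1.72).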
